A study of Mus musculus with 4 samples.

Results

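The 10 genes described here encode the invariant chains of the T cell receptor complex (Cd3d, Cd3e, Cd3g and Cd247), its coreceptors and the adhesion receptor beside it (Cd4, Cd8a and Cd2), and the first kinases and adaptor of its signal (Lck, Zap70 and Lat). They were taken by the gene name that the scanner files give each non-control spot, which found 17 probes in 35 spots, and they are 10 of 27674 gene names and 17 of 41174 probes on the array. The RNA came from immature granulocytes, the neutrophil precursors, which had been sorted out of the marrow of C57BL/6 males. The 2 KO samples came from mice that lack miR-223, a microRNA of myeloid cells that represses transcripts with matching sites, and the 2 WT samples from wild type mice. Each sample was hybridised alone, with Cy3, to 1 array of 1 slide. The age of the mice, the deletion allele, the sort gate and whether the replicates are separate animals are not stated in the sources used here, so p-values measure the spread between samples, which may be technical. No probe carries the name of the miR-223 gene, so the deletion itself was not checked.

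A T cell recognises antigen with a rearranged receptor dimer that has almost no cytoplasmic part of its own. The CD3 chains and CD3 zeta, the product of Cd247, carry the signal through immunoreceptor tyrosine-based activation motifs, which the kinase LCK phosphorylates, ZAP-70 binds, and the adaptor LAT passes on. This complex defines T cells, so its transcripts were read here for lymphocyte RNA in a granulocyte sort. In bulk RNA fewer lymphocytes and less RNA per lymphocyte cannot be told apart.

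The labelled cell type was checked against granulocyte genes: all 14 with a probe were well above background on every array, among them Mpo, Camp, Ltf and S100a8. Their summed level was 6266 and 5566 times the 75th percentile of the array in KO samples, against 5937 and 6488 times in WT samples. Processed signals are in the arbitrary intensity units of the scanner. The 75th percentile of processed signal was 361 and 422 in KO samples and 314 and 310 in WT samples, the share of spots well above background was 59.6% to 62.9%, and no spot was saturated. A probe counted as well above background on an array when the scanner software called more of its spots so than not. Log2 levels below are relative to the 75th percentile of the array, and levels of different probes are not comparable, since probes bind with different strength.

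Each gene had exactly 1 probe that was well above background on at least 2 arrays, and these 10 probes entered the test. Of the 17 probes, 7 were well above background on all 4 arrays, 3 on 3 arrays, 1 on 1 array and 6 on none. Of the 60-base probes behind these results, those for 3 receptor chains (Cd3d, Cd3g and Cd247), for the kinase ZAP-70 and for LAT are shown, the Cd3e probe being left out. They are given 5′ to 3′ in the sense of the transcript, with capitals for the paired tyrosine and leucine or isoleucine codons of the activation motif (a Tyr codon, 2 codons of any kind, then a Leu or Ile codon, in a frame with no stop).
Cd3d probe, chr9:44794171-44794402 (mm9, plus strand, across an intron): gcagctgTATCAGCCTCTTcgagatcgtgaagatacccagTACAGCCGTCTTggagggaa
Cd3g probe, chr9:44781716-44782300 (mm9, minus strand, across an intron): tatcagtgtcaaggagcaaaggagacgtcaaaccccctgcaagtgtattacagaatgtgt
Cd247 probe, chr1:167786567-167787585 (mm9, plus strand, across an intron): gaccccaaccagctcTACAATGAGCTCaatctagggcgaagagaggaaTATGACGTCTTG
Zap70 probe, chr1:36838210-36838269 (mm9, plus strand): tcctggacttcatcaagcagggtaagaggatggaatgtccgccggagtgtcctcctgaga
Lat probe, chr7:133507719-133507778 (mm9, minus strand): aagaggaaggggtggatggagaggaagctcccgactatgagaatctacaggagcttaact
The Cd3d and Cd247 probes read the motif that ZAP-70 binds, and they were 2 of the 32 among 41174 probes (0.0777%) that hold it. The probes for Cd2, Cd3d, Cd3g and Cd247 lie across exon junctions, 4 of the 17, so as single stretches they are not found in genomic DNA.

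Cd3d, the CD3 delta chain, was the member with the widest and most even difference between genotypes. Its processed signal was 108 and 127 in KO samples, against 252 and 255 in WT samples. On the scaled log2 axis the levels were -1.74 and -1.73 in KO samples and -0.32 and -0.29 in WT samples. Both KO arrays lay below both WT arrays, and each pair of replicates was nearly level. The log2 difference was -1.43 ± 0.08 (SE, n = 2 each), with a 95% interval of -1.66 to -1.21, which puts the transcript 2.70 times lower in KO samples. The gap between genotypes exceeded that of 99.5% of the tested probes, while the gap between the KO replicates was wider than that of only 4.54% of them.

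The limma test with a common prior gave Cd3d an unadjusted p of 6.27e-05 and an adjusted p of 0.0874, so it did not pass 0.05. Under that fit 0 of 25749 probes passed (0%), while 6342 (24.6%) had an unadjusted p under 0.05. With a prior that follows intensity, 2480 probes passed (9.63%; 4.6% passed as lower and 5.03% as higher in KO), and Cd3d was the 1 member among them with a limma adjusted p of 0.00285. Over the 15 alternatives its log2 difference ranged from -1.45 to -0.96 and its adjusted limma p from 0.00285 to 0.295. The direction was therefore the same in each setting, whereas the call depended on the setting.

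Cd3e, the CD3 epsilon chain, which pairs with the gamma or the delta chain, did not show a difference of that size. Its processed signal was 30.0 and 28.3 in KO samples and 24.2 and 30.5 in WT samples. The groups overlapped, the log2 difference was -0.22 ± 0.18 (SE, n = 2 each), and its 95% interval of -0.74 to 0.29 does not reach the Cd3d difference. The other Cd3e probe, from a cDNA clone, was not well above background on any array.

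Cd3g, the CD3 gamma chain, was near the detection limit. Its processed signal was 11.7 and 8.11 in KO samples and 5.45 and 6.70 in WT samples, the WT value of 5.45 being not well above background. The level was higher in both KO arrays before scaling, but the scaled groups overlapped, and the log2 difference was 0.37 ± 0.30 (SE, n = 2 each; limma adjusted p = 0.495). Without KO replicate 1 it was -0.0096.

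Cd247, the zeta chain, was measured on 3 arrays by the motif probe. The signal was 7.05 (not well above background) and 12.4 in KO samples and 11.9 and 11.4 in WT samples. After scaling both KO arrays lay below both WT arrays, with a log2 difference of -0.64 ± 0.22 (SE, n = 2 each; limma adjusted p = 0.195). Without KO replicate 1 the difference was -0.35, and without KO replicate 2 it was -0.94. The remaining 3 Cd247 probes, with signals up to 3.75, were not well above background on any array.

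The Cd3g, Cd3d and Cd3e probes lie in a row on chromosome 9, in that order, yet the 3 did not move together. The ratio of Cd3d to each of the other 9 members was taken within each array, where the scaling cancels. The log2 ratio of Cd3d to Cd3e was 1.85 and 2.17 in KO samples, against 3.38 and 3.06 in WT samples. That of Cd3d to Cd3g was 3.21 and 3.97 in KO samples, against 5.53 and 5.25 in WT samples. For 8 of the 9 members the ratio was lower in both KO arrays than in both WT arrays, and for Cd8a it overlapped. Each of these ratios contains the Cd3d difference itself, and the ratio of Cd3d to any other tested probe was lower in both KO arrays for 98.4% of 25748 probes, so the count shows nothing particular to the members. A two-sided exact permutation test gives 0.333 for a ratio with no overlap, the smallest p that 2 arrays against 2 allow.

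**Figure D1:**
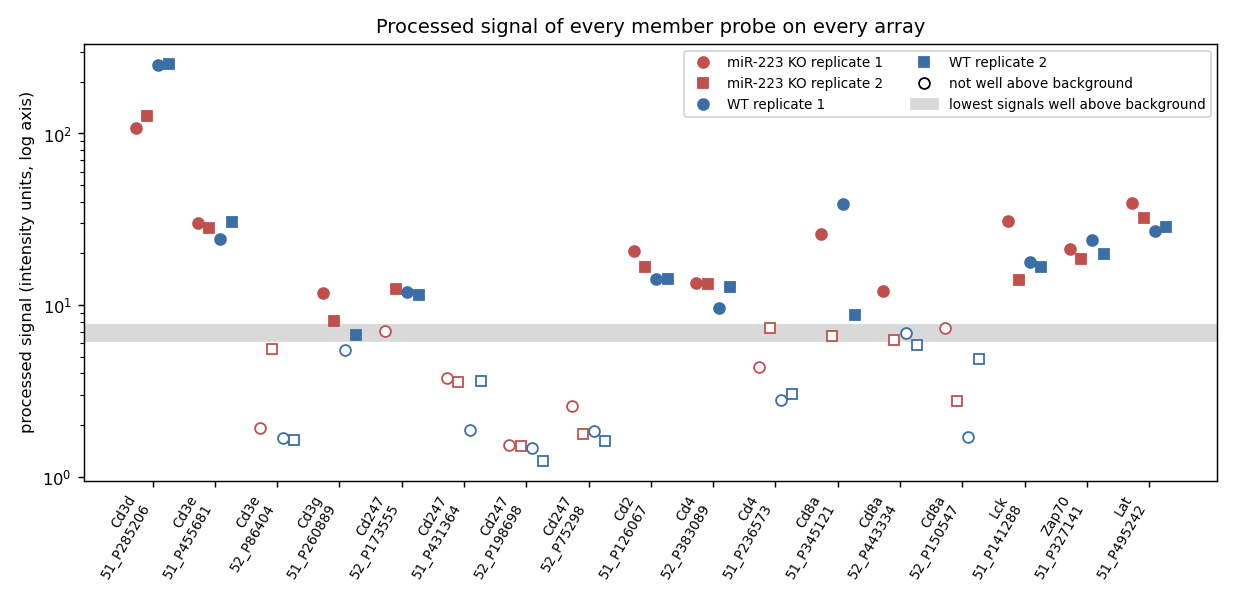
Processed signal (intensity units, log axis) of all 17 member probes on the 4 arrays, with KO samples in red left of WT samples in blue, circles for replicate 1, squares for replicate 2 and open symbols for values not well above background. Cd3d is the probe whose red and blue points separate most evenly, 108 and 127 in KO samples against 252 and 255 in WT samples; signals of different probes are not comparable.

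Cd4, the coreceptor of helper T cells that some myeloid cells also make, was read by a probe printed 10 times. The mean signal over spots was 13.4 and 13.3 in KO samples and 9.56 and 12.7 in WT samples. The background call was passed by 9 and 10 of the 10 spots in KO samples, and by 7 and 10 in WT samples. The groups overlapped after scaling, with a log2 difference of -0.04 ± 0.19 (SE, n = 2 each; limma adjusted p = 0.899). The spots of 1 array had a log2 SD of 0.28 and 0.24 in KO samples and 0.53 and 0.27 in WT samples. The second Cd4 probe, at 4.33 and 7.37 in KO samples and 2.79 and 3.01 in WT samples, was not well above background on any array.

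Cd8a, the alpha chain of the coreceptor of cytotoxic T cells, which a subset of dendritic cells also carries, differed far more between replicates than between genotypes. Its tested probe had a signal of 26.0 and 6.61 in KO samples, the second not well above background, and 39.0 and 8.76 in WT samples. Replicate 1 exceeded replicate 2 by 2.20 on the log2 scale in KO samples and by 2.14 in WT samples. These gaps were wider than those of 99.8% of the tested probes between the KO arrays and 99.7% between the WT arrays. The log2 difference between genotypes was -0.82 ± 1.09 (SE, n = 2 each; limma adjusted p = 0.673), with a 95% interval of -3.85 to 2.21. Without KO replicate 2 it was 0.28 and without WT replicate 1 it was 0.25.

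The 10 spots of a second Cd8a probe were well above background on KO replicate 1 alone, with 9 spots there, against 1 spot on KO replicate 2 and 3 on each WT array. Its mean signal was 12.1 and 6.27 in KO samples and 6.87 and 5.84 in WT samples. One and the same spot, in row 531 of the array, was the highest of the 10 on each array, at scaled log2 levels of -4.21 and -4.40 in KO samples and -4.58 and -4.19 in WT samples. On KO replicate 2 it was flagged as an outlier, and it was the 1 spot well above background there. The Cd4 probe likewise had a spot that was the highest on each array and was flagged on KO replicate 2. The scaled level of the second Cd8a probe on KO replicate 2 lay below both WT arrays, so no fold is given. This probe shared the higher value on KO replicate 1 with the tested probe, but not the high value on WT replicate 1, so the 2 probes disagreed there. The third Cd8a probe was not well above background on any array.

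**Figure D2:**
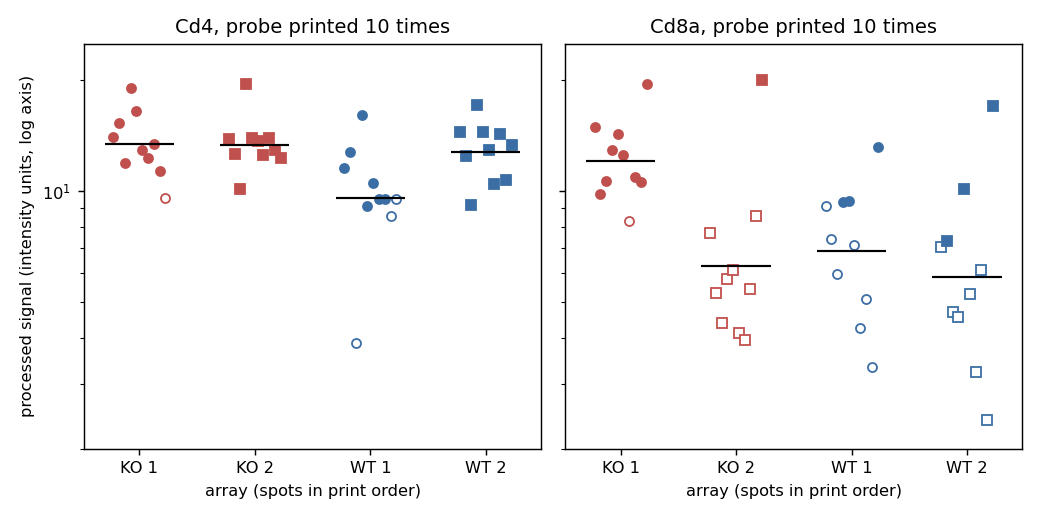
Processed signal (intensity units, log axis) of the 10 spots of the Cd4 probe (left) and of the 10 spots of the second Cd8a probe (right) on each array, KO arrays left of WT arrays, with open symbols for spots not well above background and bars at the mean over spots on the log2 scale. The Cd4 means are 13.4 and 13.3 in KO samples and 9.56 and 12.7 in WT samples, and the Cd8a mean stands out on KO replicate 1, at 12.1.

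Cd2, an adhesion receptor of T and NK cells, had a signal of 20.6 and 16.7 in KO samples and 14.2 in both WT samples. The scaled groups overlapped, with a log2 difference of 0.06 ± 0.20 (SE, n = 2 each; limma adjusted p = 0.867). Without KO replicate 1 it was -0.20.

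Lck, the kinase that phosphorylates the activation motifs, split the KO samples. Its signal was 30.9 and 14.0 in KO samples and 17.7 and 16.7 in WT samples, so the WT arrays lay between the KO arrays. The KO gap was wider than that of 99.1% of the tested probes. The log2 difference was -0.05 ± 0.49 (SE, n = 2 each; limma adjusted p = 0.958), and it was 0.63 without KO replicate 2 and -0.73 without KO replicate 1.

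Zap70, the kinase that docks on the phosphorylated motifs and also serves NK cells, had a signal of 21.4 and 18.4 in KO samples and 24.0 and 19.9 in WT samples. After scaling both KO arrays lay below both WT arrays. The log2 difference was -0.46 ± 0.20 (SE, n = 2 each; limma adjusted p = 0.247), and under normexp background correction it was -0.04. That correction was run with an offset of 50 added to each signal, more than the Zap70 signals themselves. Such an offset narrows the log2 differences of dim probes, so the smaller value does not show that the difference came from background.

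Lat, the membrane adaptor that ZAP-70 phosphorylates and that mast cells and platelets also use, had a signal of 39.6 and 32.1 in KO samples and 26.9 and 28.6 in WT samples. The scaled groups overlapped, with a log2 difference of 0.04 ± 0.21 (SE, n = 2 each; limma adjusted p = 0.916). Without KO replicate 1 it was -0.22.

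Over the 10 tested probes, 7 had a lower and 3 a higher mean in KO samples, with a median log2 difference of -0.14, beside -0.03 over all probes tested. The median was -0.05 without Cd3d, and it was 0.18 without KO replicate 2 and -0.36 without KO replicate 1. In 3 of the 10 (Cd3d, Cd247 and Zap70) both KO arrays lay below both WT arrays and in 0 above, beside 32.8% and 26.3% of all probes tested. The lower count is near its background, and over both directions 3 of 10 members had groups that did not overlap, beside 59% of all probes tested. An unadjusted limma p under 0.05 was reached by 2 members, Cd3d and Cd247, both lower, beside 13.6% of all probes lower at that level. A log2 difference of -1 or lower was found in Cd3d alone among the members, and in 0.983% of all probes tested, while 0 members and 1.23% of all probes had one of 1 or higher.

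**Figure D3:**
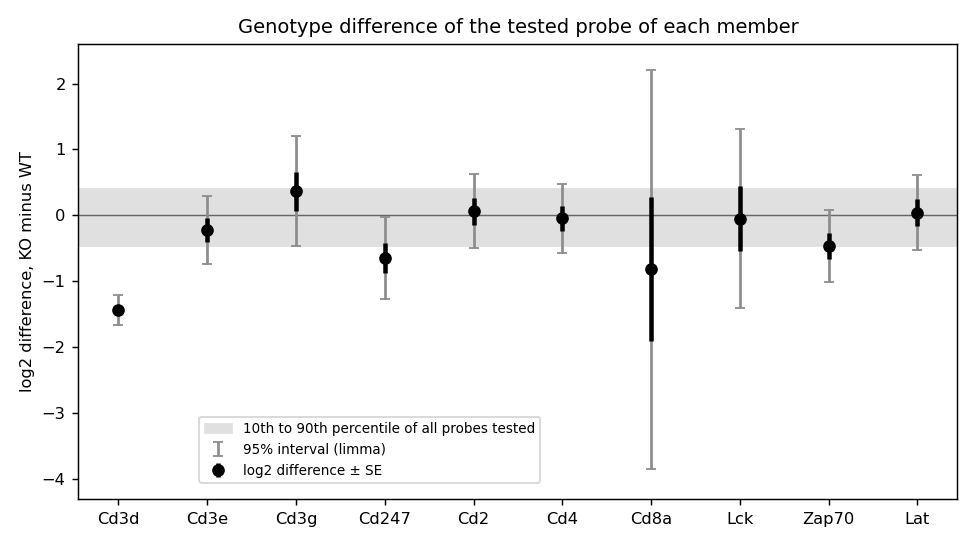
Log2 difference (KO minus WT) of the tested probe of each member, with the SE as thick bars, the 95% interval of the limma fit as thin bars, and the 10th to 90th percentile of all probes tested as a grey band. Cd3d lies at -1.43, below the band with an interval of -1.66 to -1.21, while the interval for Cd8a runs from -3.85 to 2.21.

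Agreement between replicates was poorer for the members than for most probes in KO samples. The KO arrays differed by over 0.51 on the log2 scale, the 90th percentile of all probes tested, for 6 members, and the WT arrays by over 0.48, their 90th percentile, for 1 (Cd8a). KO replicate 1 exceeded KO replicate 2 for 8 of the 10 members, the exceptions being Cd3d and Cd247, and the median gap was 0.48. WT replicate 1 exceeded WT replicate 2 for 4 of the 10, with a median gap of -0.02. The gap between genotypes was wider than both replicate gaps for 3 members, Cd3d, Cd247 and Zap70.

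Gaps between replicates over all probes tested were wider at low signal, in KO and in WT samples. Cd2, Cd247, Cd3g, Cd4, Cd8a and Lck had a mean signal under 20, where the median gap between KO replicates over 4230 tested probes was 0.34 in size and 60.8% of probes were higher on KO replicate 1. Cd3e, Lat and Zap70 had a mean signal of 20 to 50, where the size was 0.23 and the share 55.9%. Cd3d lay between 50 and 200, where the size was 0.15 and the share 49.1%. Between the WT arrays the median size in these ranges was 0.36, 0.21 and 0.13. There 32.8%, 34.5% and 37.6% of probes were higher on WT replicate 1. The share of probes lower in both KO arrays was 23.3%, 33.5% and 37.1% in these ranges, and a log2 difference of -1 or lower was found in 3.50%, 1.56% and 0.476%. The ranges were chosen after the values were seen.

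**Figure D4:**
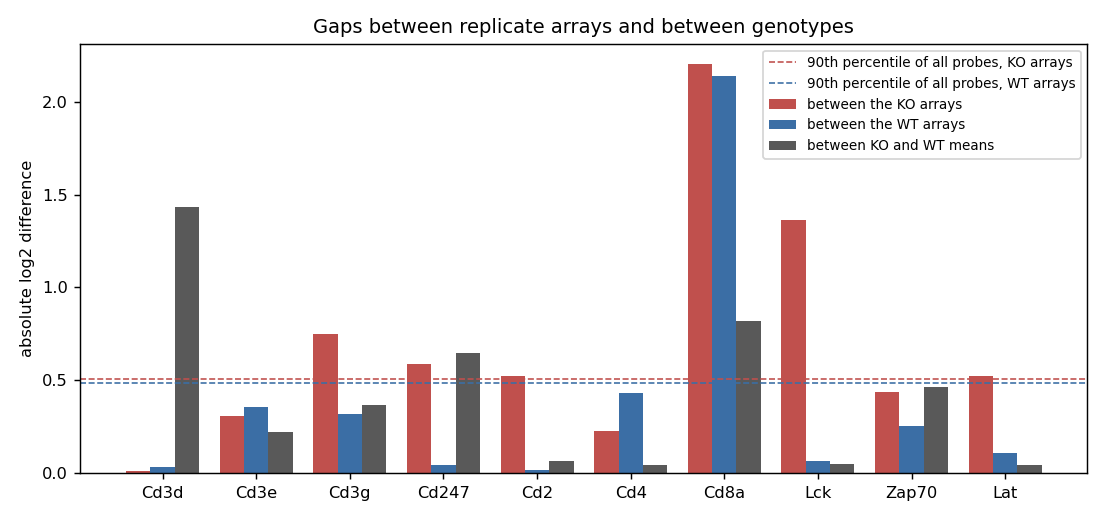
Absolute log2 difference between the 2 KO arrays (red), between the 2 WT arrays (blue) and between the KO and WT means (grey) for the tested probe of each member, with dashed lines at the 90th percentile of the replicate gaps of all probes tested, 0.51 for KO and 0.48 for WT arrays. Cd3d has the lowest red bar and the highest grey bar, and Cd8a the highest red and blue bars.

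Further genes of the receptor's signal were read from a list of 28, of which 23 were tested. None passed the limma test with the common prior, as was true of all 25749 probes. With the intensity prior 1 passed as lower and 0 as higher, beside 4.6% and 5.03% of all probes tested. These counts show nothing particular to the list. The gene that passed was Pag1, a membrane adaptor that recruits the inhibitory kinase CSK, at -0.55 ± 0.12 (SE, n = 2 each; limma adjusted p = 0.022 with that prior). Both KO arrays lay below both WT arrays for 7 of the 23, and above them for 5, beside 32.8% and 26.3% of all probes tested. The median of the 23 was -0.02. Rasgrp1, an exchange factor that activates Ras, had a log2 difference of -0.64 ± 0.16, and Ptpn22, a phosphatase that acts on LCK, one of 0.28 ± 0.08 (SE, n = 2 each). Prkcq, Trat1, Themis and Cd28 were not well above background on any array, and Txk on 1.

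Further T lineage genes were read from a list that also held names of the receptor chains, among them Tcrb-J. Of 25 listed names, 19 had a probe by name and 12 were tested, of which 11 were well above background on all 4 arrays. The tested genes include no receptor chain. The transcription factors Bcl11b and Gata3, the regulatory T cell factor Foxp3 and the costimulator Icos were not well above background on any array. Tcf7, Ctla4 and Tcrb-J were on 1 array, and Tcrb-J, a beta chain name, is also among the chain probes below. Among the 12 tested genes, 2 lay below and 4 above in both KO arrays, beside 32.8% and 26.3% of all probes tested. The median of the 12 was 0.06. Ms4a4b, a membrane protein of T and NK cells, was 0.997 ± 0.128 higher on the log2 scale (SE, n = 2 each; limma adjusted p = 0.0897, and adjusted p = 0.00979 with the intensity prior). Il2rg, the common cytokine receptor chain, was 0.32 ± 0.09 higher and Cd27, a costimulatory receptor, 0.80 ± 0.24 higher (SE, n = 2 each), and neither passed with either prior.

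The variable part of the receptor was read from 25 probes whose description names a T cell receptor chain, a set chosen after the files were seen: 13 alpha (with the pre-receptor gene Ptcra and a probe that the files name Brcc3), 7 beta, 2 gamma and 3 delta. Of these, 13 were not well above background on any array, 6 were on 1 array, 1 on 2 and 5 on all 4. A beta chain probe had a signal of 47.9 and 26.2 in KO samples and 37.9 and 30.7 in WT samples, and another 47.7 and 28.1 in KO samples and 33.4 and 21.3 in WT samples. Both were higher on replicate 1 of each genotype and overlapped between genotypes. Among the 6 probes seen on 2 or more arrays, 2 were lower and 1 higher in both KO arrays, beside 32.8% and 26.3% of all probes tested. One of the lower probes was the one that the files name Brcc3, at -0.37. Probes for different chains can bind related sequences, so counts over them are uncertain.

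Markers of other marrow cells also differed between the KO arrays, in a direction that varied with the list. KO replicate 1 exceeded KO replicate 2 for 10 of 12 T lineage genes, 9 of 9 NK cell genes, 10 of 13 B lineage genes and 13 of 13 dendritic cell genes, beside 51.5% of all probes tested. The median gaps were 0.55, 0.71, 0.77 and 0.85 on the log2 scale, against 0.0066 over all probes. For the granulocyte genes the count was 8 of 14 with a median of 0.03, and for the mast cell, basophil and megakaryocyte genes 5 of 12 with -0.12. Between the WT arrays, WT replicate 1 exceeded WT replicate 2 for 9 of 12 T lineage genes, 5 of 9 NK cell genes, 5 of 13 B lineage genes and 10 of 13 dendritic cell genes, beside 46.4% of all probes tested, and the median gaps were 0.10, 0.29, -0.01 and 0.08.

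Among those with wide gaps were Gzma, a granule protease of cytotoxic cells, with scaled log2 levels of -3.39 and -5.33 in KO samples and -3.18 and -4.10 in WT samples, and Ccr7, a homing receptor of T cells and dendritic cells, with a processed signal of 46.9 and 18.9 in KO samples and 21.2 and 20.1 in WT samples. Siglech, a receptor of plasmacytoid dendritic cells, had scaled log2 levels of -2.16 and -4.26 in KO samples and -0.49 and -3.26 in WT samples, which resembles Cd8a in being higher on replicate 1 of each genotype. Ccr7 and Siglech were singled out after their values were seen. The part of these cells in the members' values was not tested.

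Between genotypes the same lists did not all move one way. With the common prior 0 of their genes passed, but so did 0 of all 25749 probes, so that count shows nothing particular to the lists. Their medians were -0.13 for 9 NK cell genes, -0.22 for 13 B lineage genes, 0.18 for 13 dendritic cell genes, 0.10 for 12 mast cell, basophil and megakaryocyte genes and 0.10 for 14 granulocyte genes. The summed level of the NK cell genes came almost wholly from 1 gene, Nkg7, with 97.2% and 97.6% of the sum in KO samples and 97.3% in both WT samples. Without it the sum was 1.34 and 0.981 times the 75th percentile in KO samples and 1.12 times in both WT samples. For the T lineage genes the sum was 31.5 and 28.6 times in KO samples and 28.2 and 26.6 times in WT samples, of which the 3 brightest genes made up 82.3% and 87.6% in KO samples and 85.7% and 87.3% in WT samples. Of the 13 B lineage genes, 11 had a lower and 2 a higher mean in KO samples. In both KO arrays 3 of them lay below and 1 above, beside 32.8% and 26.3% of all probes tested. With the intensity prior, Cd79b of the B cell receptor was 0.46 ± 0.13 higher, Gp9 of the platelet receptor 1.19 ± 0.11 higher, and the primary granule proteases Prtn3, Ctsg and Elane 0.72 ± 0.10, 0.63 ± 0.09 and 0.50 ± 0.10 higher (SE, n = 2 each). Their limma adjusted p-values with that prior were 0.0455, 0.00528, 0.00766, 0.00967 and 0.0167 in the same order.

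The genes of each list nearest to the threshold that did not pass with either prior covered several cell types. Igll1, Vpreb1 and Vpreb3 of the pre-B cell receptor had log2 differences of -0.66 ± 0.17, -0.39 ± 0.11 and -0.37 ± 0.14, the NK cell genes Cd244, Tbx21, Klrd1 and Gzma 0.46 ± 0.21, -0.42 ± 0.31, -0.40 ± 0.37 and -0.72 ± 0.77. The dendritic cell genes Bst2, Tcf4, Irf8 and Itgax had 0.61 ± 0.20, 0.55 ± 0.19, 0.47 ± 0.17 and 0.18 ± 0.11, the mast cell and basophil genes Prss34, Fcer1a and Gata2 -0.92 ± 0.28, -0.63 ± 0.30 and 0.36 ± 0.23, and the granulocyte receptor Csf3r 0.25 ± 0.09 (SE, n = 2 each).

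**Figure D5:**
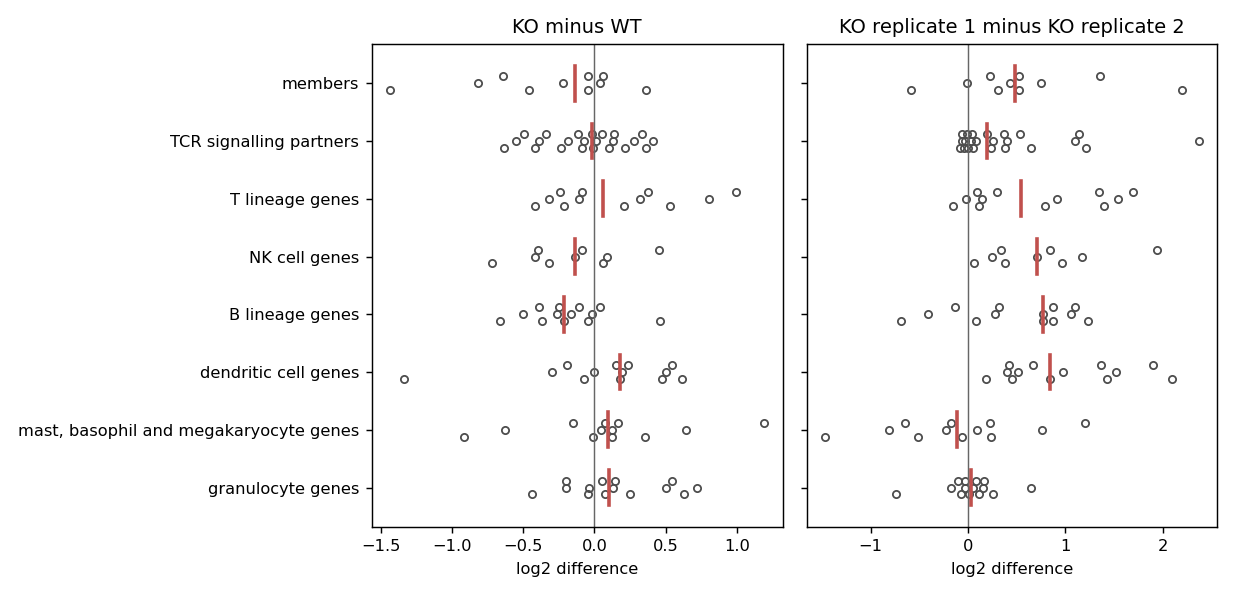
Log2 difference between KO and WT means (left) and between KO replicate 1 and KO replicate 2 (right) for each tested gene of the members and of 7 other lists, with red bars at the list medians. On the left the medians lie between -0.22 and 0.18, and on the right they lie at 0.55 or higher for T lineage, NK cell, B lineage and dendritic cell genes and at 0.03 for granulocyte genes.

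The neighbourhood of Cd3d was read within 500 kb on either side of its probe, a window of 43 probes of which 31 were tested. Of the other 30, both KO arrays lay below both WT arrays for 9 and above for 11, beside 32.8% and 26.3% of all probes tested. The median log2 difference of the 30 was 0.13. Scn2b, a sodium channel subunit with its probe 144 kb away, was the 1 other probe at -1 or lower, beside 0.983% of all probes tested. Its scaled log2 level was -4.27 and -4.49 in KO samples and -1.57 and -1.47 in WT samples, a difference of -2.86 ± 0.12 (SE, n = 2 each; limma adjusted p = 0.0874, and adjusted p = 0.00276 with the intensity prior). With that prior 1 of the other 30 probes passed as lower, Scn2b, and 3 as higher, beside 4.6% and 5.03% of all probes tested. The 3 were 1 for Arcn1, a coat protein of transport vesicles, at 0.53, and 2 for Jaml, an adhesion molecule of leukocytes, at 0.56 and 0.73. The remaining Arcn1 probes tested in the window had the opposite sign, at -0.45, -0.14 and -0.02, and did not pass, so the Arcn1 probes disagreed. The window was set after earlier results of these data were known.

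The genes whose profile over the 4 arrays, centred on its mean, lay nearest that of Cd3d were Sgo2a, Stag3, Bmpr1a, Olfr1347 and Myo15b, at a root mean square distance of 0.0384, 0.107, 0.110, 0.114 and 0.114 on the log2 scale. Their log2 differences between genotypes ran from -1.51 to -1.22. None is a member, and the nearest member, Cd247, lay at 0.446. The likeness was measured over 4 arrays and describes these arrays alone.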

How the data were processed

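Per the file headers, Agilent Feature Extraction in version 10.5.1.1 read the scans, and the deposited intensity is the background-subtracted processed signal, annotated on mm9. The table of values deposited by the authors is in log2 units and closely follows the log2 processed signal, with a shift of each array (Pearson's r 0.9999 or higher across probes). The 2 are not identical for every probe. The scale and centring of the deposited values are unstated and were read from the data. From each array's log2 processed signal the 75th percentile over non-control spots was subtracted, and spots of a probe were averaged. A probe was tested if 2 or more arrays called it well above background, which left 25749 of 41174. The test was limma's moderated statistic (lmFit and eBayes; limma 3.58.1, R 4.3.3), with Benjamini-Hochberg adjustment over all probes, a threshold of 0.05 and no block. The number of arrays limits the precision. The procedure was tested on simulated data.

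The members and lists were chosen with earlier results of these data known. Named were all members, up to 4 genes a list with the smallest p, and the 5 named genes nearest the Cd3d profile. Some genes that this rule picks are not reported here. A listed gene was read by its brightest tested probe. Names were updated through a RefSeq table of GRCm38.p6 (26933 probes by accession). Sequences come from the scanner files. Same-numbered KO and WT arrays deviated together with a Pearson's r of 0.0267 across 25749 probes, so the numbers were not taken as pairs.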

Additional observations from a re-analysis of the deposited data

How the results depend on the processing

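Against 0 probes passing the threshold (6342 at an unadjusted limma p under 0.05), 2480 passed with the intensity prior, 106 with median scaling, 2914 with normexp and quantile normalization, 2823 with normexp without control spots, 267 from the authors' deposited values and 128 with probes well above background on all 4 arrays. In these 6 settings 1 member passed, Cd3d, at -1.43, -1.36, -0.96, -1.15, -1.35 and -1.43, and no member passed in the others. The normexp settings add an offset of 50 to each signal, which narrows log2 differences, most of all at low signal. The filter to all 4 arrays tests fewer probes; otherwise the cause was not tested. Leaving out 1 array at a time, which assumes that the lone array varies like the other group, gave 0 passing probes and 0 passing members (0 to 0), and Cd3d between -1.45 and -1.42; the members' median lay between -0.36 and 0.18.

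With the replicate number as a block 0 probes passed, and the adjusted limma p of Cd3d was 0.155. That pairing rests on a shared number alone.

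Small differences turned their sign, and the cause was not tested. Lck was 0.031 with median scaling, 0.049 with quantile normalization, 0.0100 with normexp, 0.013 with normexp without control spots and 0.034 from the deposited values, and -0.73 to 0.63 with 1 array left out. Cd4 was 0.034 with median scaling, 0.015 with quantile normalization, 0.0093 with normexp, 0.012 with normexp without control spots, and -0.26 to 0.17 with 1 array left out. With 1 array left out Cd2 lay between -0.20 and 0.32, Cd3g between -0.0096 and 0.74, Lat between -0.22 and 0.30, and Cd8a between -1.92 and 0.28. The members other than Cd3d had signals of 5.45 to 39.6, and the lowest signals well above background were 6.19 to 7.68. Cd3g, Cd247, Cd4 and Cd8a had values close to these, which limits what these arrays can show for them. Cd3e, Lat and Zap70, at 18.4 to 39.6, were dim but well above background on all 4 arrays.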
